A study of Mus musculus with 24 samples.

Results

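Interferon-stimulated genes are the genes that cells switch on when an interferon binds its receptor. A list of 43 such mouse genes was followed through RNA-seq of sorted mammary epithelial cells, by finding the row of each symbol's Entrez identifier among the 27179 genes of the count matrix. All 43 were found. All 43 also passed the filter on low counts and were tested among 18109 genes.

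Type I interferons act through the receptor chains IFNAR1 and IFNAR2, which activate the kinases JAK1 and TYK2. STAT proteins, STAT2 among them, are then phosphorylated and join IRF9 in the complex ISGF3, which binds interferon-stimulated response elements in promoters. The induced proteins sense viral RNA, degrade or sequester it, modify other proteins with ISG15 and raise the levels of STAT2, IRF9 and IRF7 themselves. Many of these genes also have a basal level that is set without infection, in epithelium as in other tissues. Interferon gamma acts through its own receptor on gamma-activated sites, and IRF1 is a main target of that branch.

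The study microdissected mammary tissue of pubertal mice into terminal end buds (TEBs), where the ductal tree grows, and ducts, and sorted lineage-negative EpCAM+ cells from each. Low CD29 defined luminal cells and high CD29 defined basal cells. Each of 6 populations was sequenced from TEBs and from ducts in 2 libraries, which gives 24 libraries and 12 groups. The Elf5-rtTA-IRES-GFP mice gave luminal GFP-positive, luminal GFP-negative and basal cells, and the PR-cre/Rosa26-LSL-eYFP mice gave luminal YFP-negative, luminal YFP-positive and basal cells. GFP reports the Elf5 locus, which is active in alveolar-type luminal progenitors. YFP marks cells in which, or in whose ancestors, the progesterone receptor Cre was active, so it records history as well as present expression. Elf5 ran from 410 to 1660 CPM (counts per 1000000 counts) in the GFP-positive and YFP-negative libraries, and from 15 to 87.3 CPM in the GFP-negative and YFP-positive libraries. Pgr ran from 13.2 to 73.3 CPM in the GFP-positive and YFP-negative libraries, and from 202 to 635 CPM in the GFP-negative and YFP-positive libraries. Strain, exact age and drug treatment of the mice were not stated in the labels. No label ties the 2 libraries of a group to different animals; the p-values therefore reflect only how far these samples spread, and that spread may be technical. In bulk RNA, fewer cells of a type and less RNA per cell cannot be told apart.

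Total counts ran from 31.3 to 52.5 M (1e6 reads) per library. The smooth muscle actin gene Acta2 ran from 3210.0 to 10200 CPM in basal libraries and from 2.49 to 14.6 CPM in luminal libraries, and Krt8 from 153 to 478 CPM in basal and from 1580 to 5240 CPM in luminal libraries. A pair of luminal libraries stood apart by keratinocyte transcripts: the summed level of 10 keratinocyte genes was 2884 CPM in GFP-negative duct replicate 2 and 592 CPM in YFP-negative TEB replicate 2, and ran from 7.52 to 93.0 CPM in the other 22. Counts of members called that did not stay within 1.5 times without these libraries are given both ways. Other counts include these libraries unless stated. Bst2, a member that also marks plasmacytoid dendritic cells, was left out of the marker lists. It was called higher in TEBs in the luminal and the basal mean. No other marker of leukocytes, macrophages, plasmacytoid dendritic cells, T and NK cells or B cells was called higher in either mean. The summed level of 4 leukocyte genes ran from 0.386 to 1.32 CPM in luminal TEB libraries against 1.23 to 3.96 CPM in luminal duct libraries, and from 0.946 to 1.34 CPM in basal TEB libraries against 1.33 to 13.5 CPM in basal duct libraries, with 2 of the 4 called lower in each. Siglech, which marks plasmacytoid dendritic cells, and the B-cell gene Ms4a1 had 0 counts in every TEB library, but other genes of their lists had counts. Without Bst2, the 3 plasmacytoid dendritic cell genes summed to 47.0 to 67.9 CPM in luminal TEBs, against 52.2 to 87.1 CPM in ducts. In basal cells they summed to 122 to 159 CPM in TEBs, against 115 to 155 CPM in ducts. The 3 B-cell genes summed to 0 to 1.12 CPM in luminal and 0.777 to 2.72 CPM in basal TEBs. In ducts the B-cell sums were 0.0561 to 1.31 and 1.37 to 3.27 CPM. Of 5 fibroblast genes, 2 were called higher and 1 lower in luminal TEBs, where their summed level ran from 10.7 to 91.1 CPM, against 21.3 to 104 CPM in luminal ducts. Their level was higher in basal libraries, from 201 to 751 CPM in TEBs against 246 to 536 CPM in ducts, with 0 called in the basal mean. The part of these markers in the results below was not tested.

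Promoter sequences show which members carry the DNA letters that ISGF3 and the interferon regulatory factors bind. RefSeq windows (GRCm38.p6) from 250 bases before to 50 bases after the transcription start were at hand for 33 of the 43 genes. The letters GAAA and GAAA separated by any 2 bases, searched on both strands, were found in 16 of these 33 genes, or 48.5%, and in 3.99% of the 27025 genes with a window. These 16 genes were Bst2, Ddx58, Eif2ak2, Gbp2, Gbp3, Ifih1, Ifit1, Ifit3, Ifit3b, Isg15, Oas1a, Oas1g, Oas3, Rsad2, Stat2 and Trim30a. With CT required directly after the second GAAA, 10 of the 33 genes and 0.303% of all genes held a match. The letters of a gamma-activated site, TTC and GAA separated by any 3 bases, were in 9 of the 33 genes (27.3%) and in 9.55% of all genes. That motif was added after the data were seen. A match is a description of the letters and not evidence of binding.

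The 150 bases directly before the start site are shown for 7 members, 5′ to 3′ in the direction of transcription. Each of the 7 holds a match to the letters marked for it, and no member without a match is shown. They were chosen because they carry the main contrasts in the results: the first 5 genes were higher in TEBs in luminal and basal cells, whereas Gbp2 was higher in luminal and lower in basal TEB cells, and Irf1 was lower in basal TEB cells. Capitals mark GAAA and GAAA separated by any 2 bases, read on either strand, with overlapping copies joined; for Irf1 they mark the gamma-activated site letters.
Isg15 (chr4:156200819-156200968, - strand): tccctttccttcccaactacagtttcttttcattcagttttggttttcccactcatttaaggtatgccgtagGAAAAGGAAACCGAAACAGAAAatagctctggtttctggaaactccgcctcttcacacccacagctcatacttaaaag
Oas1g (chr5:120887614-120887763, - strand): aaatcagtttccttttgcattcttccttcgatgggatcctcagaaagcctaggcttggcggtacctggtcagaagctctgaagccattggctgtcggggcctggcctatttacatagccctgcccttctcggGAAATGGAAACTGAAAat
Ifit1 (chr19:34640739-34640888, + strand): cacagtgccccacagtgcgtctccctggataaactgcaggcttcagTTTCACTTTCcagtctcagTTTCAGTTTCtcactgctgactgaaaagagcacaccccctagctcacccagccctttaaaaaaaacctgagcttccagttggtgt
Rsad2 (chr12:26456453-26456602, - strand): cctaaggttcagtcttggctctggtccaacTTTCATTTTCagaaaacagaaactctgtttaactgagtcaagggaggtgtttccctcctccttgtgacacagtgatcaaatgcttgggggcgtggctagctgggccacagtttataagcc
Bst2 (chr8:71537473-71537622, - strand): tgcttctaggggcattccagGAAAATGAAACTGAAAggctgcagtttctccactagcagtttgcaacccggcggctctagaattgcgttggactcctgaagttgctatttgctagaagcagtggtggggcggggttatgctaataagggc
Gbp2 (chr3:142620513-142620662, + strand): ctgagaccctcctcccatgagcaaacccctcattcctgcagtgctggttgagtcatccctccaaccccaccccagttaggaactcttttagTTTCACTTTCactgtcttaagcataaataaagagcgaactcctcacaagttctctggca
Irf1 (chr11:53769864-53770013, + strand): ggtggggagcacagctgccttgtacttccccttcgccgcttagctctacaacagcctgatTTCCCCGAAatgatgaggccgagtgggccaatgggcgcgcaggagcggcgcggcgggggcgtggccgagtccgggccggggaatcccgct
Isg15 held 3 overlapping copies that began 78, 72 and 66 bases before its start, Oas1g 2 copies at 18 and 12 bases, and Bst2 2 copies at 130 and 124 bases. Ifit1 held 2 copies that began 104 and 85 bases before its start. Rsad2 held 1 copy at 120 bases, Gbp2 held 1 at 59 bases, and the Irf1 letters began 90 bases before the start. Among the 33 genes with a window, the 16 with the letters had a median log2 fold change, TEB over duct, of 1.98 in luminal and 0.72 in basal cells, and 13 of them were called higher in luminal TEBs. The 17 without the letters had medians of 0.30 in luminal and -0.14 in basal cells, and 10 of them were called higher in luminal TEBs. Both sets were above the 20% of all genes called higher there. In basal TEBs 7 of the 16 were called higher and 3 lower, and 4 of the 17 higher and 6 lower. Of all genes 20.9% were called higher and 22.8% lower in basal TEBs, so the 3 and the 4 are near these shares. The part of the letters in the TEB changes was not tested.

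Most of the 43 genes were higher in luminal TEB cells than in luminal duct cells, with the highest count and median in GFP-negative cells. In GFP-negative luminal cells 35 of the 43 genes were called higher in TEBs and 0 lower, where 8.85% of all genes tested were called higher and 9.65% lower. In GFP-positive cells 25 were higher and 3 lower, against 11.8% and 10.9% of all genes. YFP-positive cells had 22 higher and 0 lower, against 4.61% and 3.25% of all genes. YFP-negative cells had 13 higher and 4 lower, against 10.5% and 7.97%. Median log2 fold changes of the 43 genes, TEB over duct, were 1.99 in GFP-negative, 1.21 in GFP-positive, 1.12 in YFP-positive and 0.14 in YFP-negative cells, beside medians over all genes between 0.000 and 0.005. The mean of the 4 luminal gates had 33 genes higher and 1 lower, against 20% and 18.6% of all genes.

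Each luminal library can be read by its median over the 43 genes. This median was 72.5 and 71.3 CPM in GFP-negative TEBs, against 17.3 and 16.4 CPM in GFP-negative ducts. GFP-positive cells had 39.6 and 43.3 CPM in TEBs, against 15.1 and 17 CPM in ducts. In YFP-positive cells it was 24.3 and 24.9 CPM in TEBs, against 8.54 and 7.83 CPM in ducts, and in YFP-negative cells 18.1 and 18.9 CPM in TEBs, against 17.1 and 13.8 CPM in ducts. TEB and duct libraries were apart in all 4 gates, by little in the YFP-negative gate. For 18 of the 43 genes both TEB libraries lay above both duct libraries in each of the 4 luminal gates, a pattern shown by 8.33% of all genes tested. These were Oas1a, Oas1g, Oas2, Oas3, Oasl1, Oasl2, Ifit1, Ifit3, Ifit3b, Rsad2, Bst2, Isg15, Usp18, Mx1, Mx2, Gbp2, Gbp3 and Ifi44.

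In basal cells the TEB effect was lower in the PR-cre than in the Elf5 model for 12 of the 43 genes. In the PR-cre model 5 of the 43 genes were called higher in basal TEB cells and 18 lower, where 12% of all genes were called higher and 12.7% lower. In the Elf5 model 20 were higher and 7 lower, against 17.2% and 19.2%. The members' median log2 fold change was -0.26 in PR-cre basal cells and 0.60 in Elf5 basal cells, beside 0.00 and -0.06 over all genes. The difference itself, the basal TEB effect in the PR-cre minus the Elf5 model, was tested after these counts were seen. It was called for 12 genes, each below 0, where 0.508% of all genes were below and 0.486% above. The widest were Ifih1 (-3.54 ± 0.36, adjusted p = 0.000134), Ifi44 (-2.97 ± 0.61, adjusted p = 0.0308) and Rtp4 (-2.58 ± 0.43, adjusted p = 0.00777), and the others were Oas1a, Oasl2, Isg15, Usp18, Parp9, Dtx3l, Ifi35, Xaf1 and Lgals3bp. Fewer than the 12 were called without Elf5 basal TEB replicate 2, a fit that leaves 1 library in that group. The 12 became 5 with an assumed preparation as a random effect, joining gates of the same model, tissue and replicate number. The labels do not state that these gates shared a preparation. Over both models 14 genes were called higher and 13 lower, against 20.9% and 22.8% of all genes. The median level was 3.05 and 4.37 CPM in PR-cre basal TEBs, against 4.78 and 4.81 CPM in the ducts, and 8.53 and 10.0 CPM in Elf5 basal TEBs, against 3.56 and 3.16 CPM in the ducts. Other cell markers moved in the same basal libraries. The summed level of the luminal genes Krt8, Krt18, Krt19 and Epcam was 379 to 438 CPM in PR-cre basal TEBs, against 726 to 843 CPM in PR-cre basal ducts, and 514 to 601 CPM in Elf5 basal TEBs, against 817 to 902 CPM in Elf5 basal ducts. The summed level of the luminal progenitor genes Elf5 and Kit ran the other way, from 58.2 to 104 CPM in basal TEBs, against 7.38 to 36.5 CPM in basal ducts, with 1 gene called higher and 1 lower. The 5 basal markers summed to 6020 to 9470 CPM in basal TEBs, against 16700 to 19100 CPM in basal ducts, with 2 called lower. The 6 macrophage genes summed to 3.53 to 5.88 CPM in basal TEBs, against 13.1 to 23.2 CPM in basal ducts, and 3 of the 5 tested were called lower. The 4 endothelial genes summed to 5.1 to 14.6 CPM in basal TEBs, against 3.83 to 51.2 CPM in basal ducts, with 2 called lower, and the 5 T and NK cell genes to 0.0591 to 0.297 CPM, against 1.05 to 3.36 CPM, with 1 of 4 tested called lower. Their part in the basal changes was not tested.

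**Figure D1:**
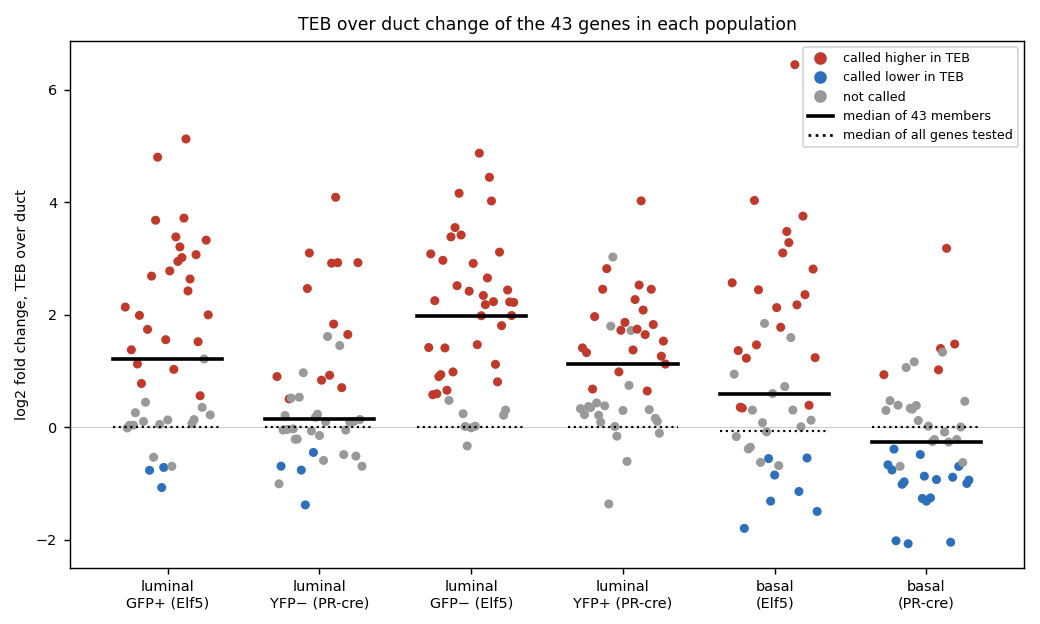
Log2 fold change, TEB over duct, of the 43 interferon-stimulated genes in each of 6 sorted populations. Each point is 1 gene, red where called higher in TEBs, blue where called lower and grey where not called (edgeR, adjusted p under 0.05); the solid bar is the median of the 43 genes and the dotted bar that of all genes tested. The median bar lies at 1.99 in luminal GFP-negative cells and at -0.26 in PR-cre basal cells.

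Some of these counts depended on single libraries. The 13 YFP-negative genes called higher became 7 without TEB replicate 1, 5 without TEB replicate 2 and 4 without duct replicate 2, and the 4 called lower became 0 to 2 with any of the 4 libraries left out. The 22 YFP-positive genes became 11 without duct replicate 1 and 12 without duct replicate 2. In PR-cre basal cells the 5 genes called higher became 1 or 2 with any library left out, and the 18 called lower became 9 without TEB replicate 1. The 3 GFP-positive genes called lower became 1 without TEB replicate 1 and 1 without duct replicate 2. Without the pair of libraries with keratinocyte transcripts, the genes called higher were 34 in GFP-negative, 8 in YFP-negative and 30 in the luminal mean.

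Over the 6 populations, 23 genes were called higher in at least 1 and lower in none, a pattern of 24.1% of all genes tested, and 15 were called in opposite directions in different populations, a pattern of 6.18%. Another 4 were called lower only (25.8% of all genes) and 1, Ifnar1, was called in none (43.9%). Oas1a, Oas1g and Rsad2 were called higher in TEBs in all 6 populations, as were 1.03% of all genes. The largest of a gene's 4 luminal changes fell in the GFP-negative gate for 27 genes, in the GFP-positive gate for 12, in the YFP-positive gate for 3 and in the YFP-negative gate for 1, where all genes divided into 25.5%, 24.3%, 20.1% and 30.1% in the same order. In PR-cre basal cells 31 of the 43 genes had the lowest of their 6 changes, as did 14.5% of all genes.

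**Figure D2:**
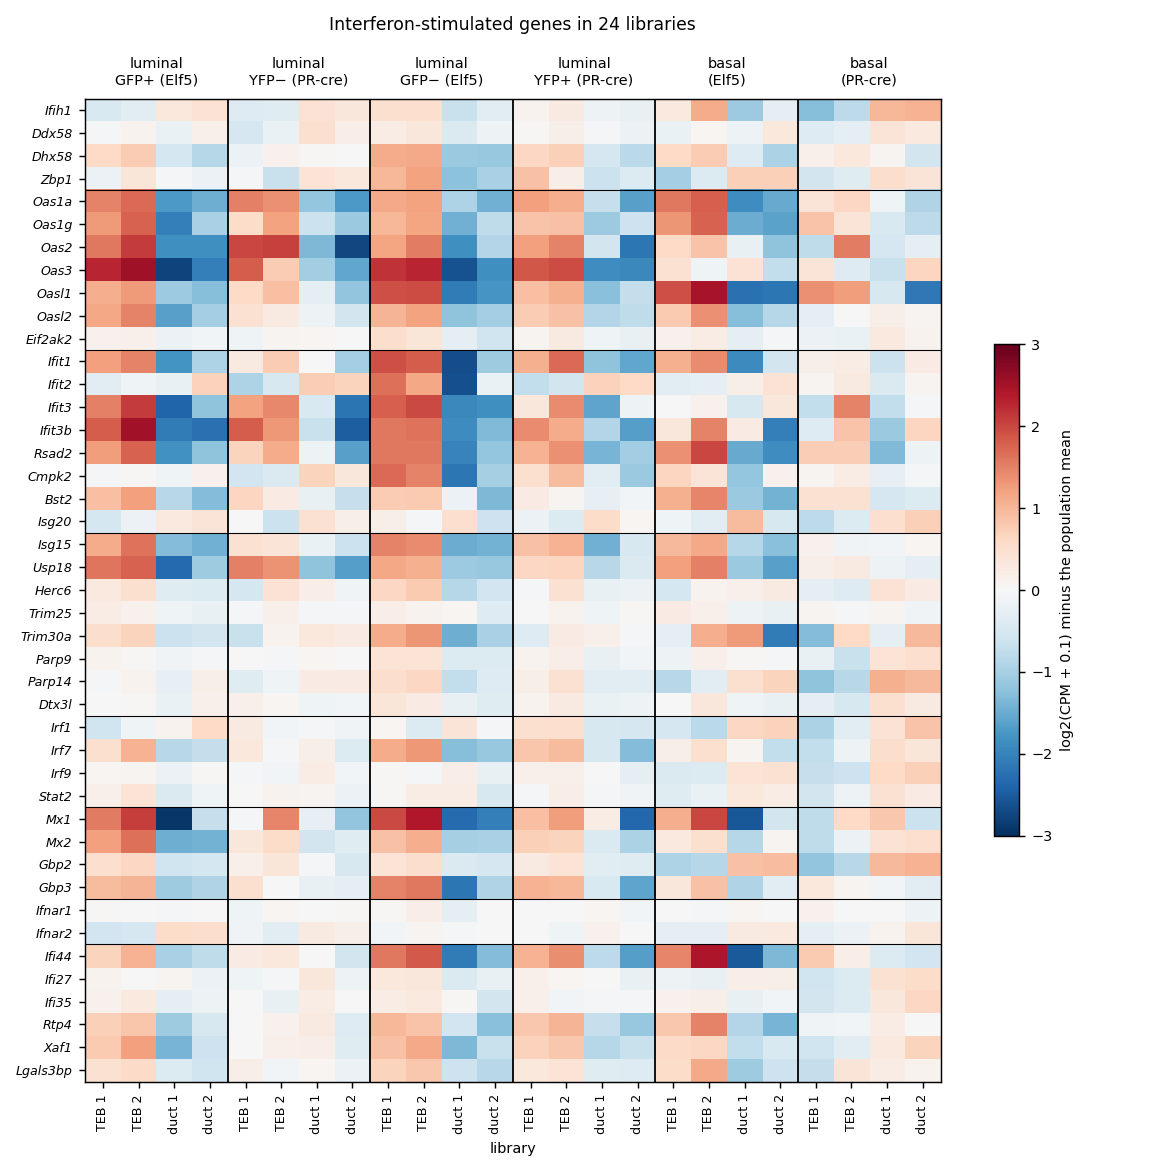
Level of each of the 43 genes (rows, grouped by role as in the text) in each of 24 libraries (columns, TEB left of duct in each population), as log2(CPM + 0.1) minus the gene's mean over the 4 libraries of that population. TEB columns are mostly red in the Elf5 gates, paler in the YFP-negative gate and mixed in PR-cre basal cells.

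Transcripts of the interferons themselves were at the edge of detection. Of 21 interferon genes, 12 had a count in any library, 9 had none, and the highest count of a gene in a library was 33. Summed over the 2 libraries of a group, Ifnb1, which encodes interferon beta, had 26 counts in GFP-negative TEBs and 0 in GFP-negative ducts. It had 19 counts in GFP-positive TEBs and 0 in the ducts, 7 in YFP-positive TEBs and 0 in the ducts, 0 in YFP-negative TEBs and 8 in the ducts. In basal cells Ifnb1 had 0 counts in TEBs and ducts of the Elf5 model, and 0 in TEBs and 6 in ducts of the PR-cre model. Only 4 interferon genes passed the filter, and 0 of them were called in any TEB comparison. The lambda interferon Ifnl3 had 33 and 9 counts in YFP-positive TEBs, against 19 and 16 in YFP-positive ducts, and the tissues overlapped. Ifnl2, also a lambda interferon, had 16 and 12 counts in GFP-negative TEBs, against 0 and 0 in GFP-negative ducts. In YFP-positive cells Ifnl2 had 7 and 6 counts in TEBs, against 8 and 8 in ducts. Sorting removed lineage-positive cells, so interferon made by immune or stromal neighbours was not measured here.

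Neither receptor gene was called higher in TEBs in any population. Ifnar1, a chain of the type I receptor, had from 47.8 to 65.6 CPM (median 59.1) in the 8 luminal TEB libraries and from 44.8 to 64.6 CPM (median 56.8) in the 8 duct libraries. TEB and duct libraries overlapped in 3 of the 6 populations, and no direction was shared by the others. Ifnar1 had a luminal log2 fold change of 0.06 ± 0.05 (SE, adjusted p = 0.426) and a basal change of 0.02 ± 0.08 (adjusted p = 0.885). Ifnar2, the other chain, had 39.6 and 42.0 CPM in TEB libraries, against 86.2 and 85.3 CPM in duct libraries of the GFP-positive gate, a clear separation (log2 fold change -1.07 ± 0.11 (SE), adjusted p = 6.73e-06). In the YFP-negative gate it had 48.8 and 41.4 CPM in TEBs against 63.3 and 59.8 CPM in ducts, again without overlap (log2 fold change -0.45 ± 0.11, adjusted p = 0.01). The GFP-negative gate had 28 and 31.6 CPM in TEBs against 29.0 and 30.1 CPM in ducts, and the YFP-positive gate 27.1 and 24.9 CPM in TEBs against 30.2 and 27.9 CPM in ducts, and neither change was called. Basal cells had 32.2 and 31.6 CPM in TEBs against 46.5 and 47.4 CPM in ducts in the Elf5 model and 32.1 and 34.6 CPM in TEBs against 42.6 and 50.8 CPM in ducts in the PR-cre model, so that every basal TEB library lay below every basal duct library (log2 fold change -0.52 ± 0.08 (SE), adjusted p = 4.88e-05). Ifnar2 was the only one of the 43 genes called lower in the luminal mean (log2 fold change -0.42 ± 0.06, adjusted p = 1.97e-05).

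The transcription factors split by compartment. Irf7, the factor that amplifies type I interferon production, was called higher in the luminal mean and in 3 of its 4 gates. It had 63.9 and 72.3 CPM in TEB libraries, against 12.2 and 13.3 CPM in duct libraries of the GFP-negative gate and 73.5 and 108 CPM in TEBs against 29.5 and 32.0 CPM in ducts of the GFP-positive gate, with no overlap in either. In the YFP-negative gate it had 28.6 and 22.1 CPM in TEBs against 26.0 and 17.2 CPM in ducts, where the libraries overlapped. The luminal log2 fold change of Irf7 was 1.48 ± 0.15 (SE, adjusted p = 2.08e-06). In PR-cre basal cells Irf7 was lower in TEBs, with 8.02 and 12.2 CPM in TEBs against 19.6 and 17.3 CPM in ducts (log2 fold change -0.87 ± 0.31, adjusted p = 0.0495). In Elf5 basal cells it had 15.2 and 18.9 CPM in TEBs against 14.5 and 8.05 CPM in ducts, and the difference was not called.

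Stat2 and Irf9, parts of ISGF3, fell in basal TEBs. Irf9 had 55.6 and 57.2 CPM in TEB libraries, against 100.2 and 103 CPM in duct libraries of Elf5 basal cells and 33.5 and 35.7 CPM in TEBs against 82.5 and 89.7 CPM in ducts of PR-cre basal cells. The basal ranges were far apart (log2 fold change -1.08 ± 0.09 (SE), adjusted p = 1.33e-07), while its luminal change was 0.07 ± 0.07 on the log2 scale (adjusted p = 0.47). Stat2 had 33.3 and 37.5 CPM in TEBs against 53.3 and 50 CPM in ducts in Elf5 basal cells and 16.6 and 22.1 CPM in TEBs against 33.7 and 29.0 CPM in ducts in PR-cre basal cells, a fall in both models (log2 fold change -0.62 ± 0.14 (SE), adjusted p = 0.00152). In luminal cells Stat2 had from 28 to 142 CPM (median 68.4) in the 8 luminal TEB libraries and from 24.4 to 144 CPM (median 56.5) in the 8 duct libraries, and its call there (log2 fold change 0.26 ± 0.10, adjusted p = 0.0434) was lost in 5 of 7 alternative fits, among them the one without the keratinocyte libraries (adjusted p = 0.171).

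Irf1, a factor that interferon gamma induces directly, was abundant in basal ducts. It had 245 and 198 CPM in TEB libraries, against 539.5 and 562 CPM in duct libraries of Elf5 basal cells and 119 and 179.7 CPM in TEBs against 308 and 409.6 CPM in ducts of PR-cre basal cells, and no basal TEB library reached a basal duct library (log2 fold change -1.29 ± 0.17 (SE), adjusted p = 1.69e-05). In luminal cells the gates disagreed. YFP-positive cells had 273 and 278 CPM in TEBs against 141 and 137 CPM in ducts, a rise of 0.98 ± 0.24 on the log2 scale (adjusted p = 0.019). GFP-positive cells had 106 and 148 CPM in TEBs against 173 and 243 CPM in ducts, a log2 fold change of -0.71 ± 0.24 (adjusted p = 0.0414), and the luminal mean was 0.03 ± 0.12 (adjusted p = 0.953).

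Of the 4 RNA sensors, 2 were called higher in the luminal mean, and 1 was higher and 2 were lower in the basal mean, where 20% and 18.6% of all genes were called in the luminal mean and 20.9% and 22.8% in the basal mean. Dhx58 (LGP2), a regulator of the other RIG-I-like receptors, was higher in TEBs in 3 luminal gates and in Elf5 basal cells. It had 49.2 and 50.5 CPM in TEB libraries, against 10.5 and 10.4 CPM in duct libraries of the GFP-negative gate, 25.6 and 28.7 CPM in TEBs against 11.6 and 9.28 CPM in ducts of the GFP-positive gate, and 8.58 and 10.6 CPM in TEBs against 10.0 and 9.80 CPM in ducts of the YFP-negative gate, where the values overlapped. Its luminal change was 1.23 ± 0.11 and its basal change 0.92 ± 0.17 on the log2 scale (adjusted p = 3.19e-07 and 0.000248).
Ifih1 (MDA5), which senses long double-stranded RNA, changed in opposite directions. It rose in GFP-negative TEBs, with 109 and 109.8 CPM in TEBs against 48.6 and 61.8 CPM in ducts (log2 fold change 0.98 ± 0.22, adjusted p = 0.0068). In GFP-positive cells it had 55.4 and 60.7 CPM in TEBs against 94.5 and 103 CPM in ducts, and in YFP-negative cells 79.0 and 80.5 CPM in TEBs against 139 and 131 CPM in ducts, a fall in both gates (log2 fold changes -0.77 ± 0.22 and -0.76 ± 0.22, adjusted p = 0.02 and 0.0245). Elf5 basal cells had 3.74 and 6.73 CPM in TEBs against 1.38 and 2.46 CPM in ducts and PR-cre basal cells 3.05 and 4.37 CPM in TEBs against 15.3 and 15.8 CPM in ducts, a rise in one model and a fall in the other (log2 fold changes 1.46 ± 0.26 and -2.07 ± 0.24).
Ddx58 (RIG-I), the sensor of 5′-triphosphate RNA, had 95.7 to 189.7 CPM in TEBs against 83.8 to 189 CPM in ducts of luminal cells and 30.2 to 45.9 CPM in TEBs against 39.6 to 55.0 CPM in ducts of basal cells, and was called lower in the basal mean (log2 fold change -0.42 ± 0.12, adjusted p = 0.00805; luminal adjusted p = 0.824). Zbp1, a sensor of Z-form nucleic acid that can trigger necroptosis, had 30.7 and 35.4 CPM in TEB libraries, against 6.47 and 7.71 CPM in duct libraries of the GFP-negative gate and 8.83 and 5.44 CPM in TEBs against 3.01 and 3.54 CPM in ducts of the YFP-positive gate, a rise in both. It had 14.3 and 20.9 CPM in TEBs against 15.8 and 14.4 CPM in ducts of the GFP-positive gate, overlapping, and 7.28 and 4.67 CPM in TEBs against 10.1 and 9.31 CPM in ducts of the YFP-negative gate, where both TEB values were below both duct values and the difference was not called. In basal cells it had 0.599 and 0.965 CPM in TEBs against 2.21 and 2.22 CPM in ducts in the Elf5 model and 1.40 and 1.60 CPM in TEBs against 3.02 and 2.73 CPM in ducts in the PR-cre model, every TEB value below every duct value. Its luminal and basal changes were 0.72 ± 0.14 and -1.22 ± 0.21 on the log2 scale (adjusted p = 0.000526 and 0.000192).

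The oligoadenylate synthetases, which make the messenger that activates RNase L, and the kinase PKR had the highest class median, with log2 fold changes of 2.50 in luminal and 1.47 in basal cells. All 7 genes of the OAS and PKR class were called higher in the luminal mean, where 20% of all genes were. In the basal mean 4 were higher and 0 lower, against 20.9% and 22.8% of all genes. Oas3 had 58.9 and 64.5 CPM in TEB libraries, against 2.04 and 3.62 CPM in duct libraries of the GFP-negative gate and 12.9 and 15.5 CPM in TEBs against 0.289 and 0.538 CPM in ducts of the GFP-positive gate. YFP-positive cells had 8.39 and 8.97 CPM in TEBs against 0.548 and 0.510 CPM in ducts and YFP-negative cells 3.94 and 1.85 CPM in TEBs against 0.459 and 0.291 CPM in ducts. In each gate the values were well apart, and the luminal log2 fold change was 4.13 ± 0.27 (SE, adjusted p = 1.18e-08). In basal cells Oas3 stayed between 0.0304 and 0.3004 CPM in all 8 libraries, with 9 to 16 counts in the 2 libraries of a group.
Oas2 had 65.8 and 93.1 CPM in TEB libraries, against 6.07 and 5.99 CPM in duct libraries of the GFP-positive gate and 97.3 and 123 CPM in TEBs against 11.8 and 23.2 CPM in ducts of the GFP-negative gate. In YFP-positive cells it had 21.9 and 26.3 CPM in TEBs against 6.30 and 1.98 CPM in ducts, and in YFP-negative cells 9.47 and 9.81 CPM in TEBs against 0.837 and 0.259 CPM in ducts. TEB values exceeded duct values in each of these gates (luminal log2 fold change 3.25 ± 0.32 (SE), adjusted p = 3.49e-06).
Oas1a, called in all 6 populations, had 50 and 58.7 CPM in TEB libraries, against 5.36 and 6.43 CPM in duct libraries of the GFP-positive gate, 72.5 and 76.4 CPM in TEBs against 17.3 and 12 CPM in ducts of the GFP-negative gate and 12.5 and 11.4 CPM in TEBs against 1.89 and 1.26 CPM in ducts of the YFP-negative gate. Elf5 basal cells had 12 and 13.8 CPM in TEBs against 1.01 and 1.31 CPM in ducts, a clear separation (log2 fold change 3.48 ± 0.32). PR-cre basal cells had 2.33 and 2.77 CPM in TEBs against 1.60 and 0.901 CPM in ducts, closer but not overlapping (log2 fold change 1.02 ± 0.32, adjusted p = 0.0259). Its near-identical neighbour Oas1g changed by 2.19 ± 0.19 in luminal and 2.34 ± 0.29 in basal cells on the log2 scale, and reads may have been divided between these paralogs.
Oasl1 and Oasl2 are OAS-like proteins. Oasl1 had the largest basal change of all members. It had 2.12 and 3.17 CPM in TEBs against 0.0246 and 0.0304 CPM in ducts in Elf5 basal cells and 1.04 and 0.947 CPM in TEBs against 0.216 and 0 CPM in ducts in PR-cre basal cells, so that basal ducts were at or near 0 (log2 fold change 4.82 ± 0.51 (SE), adjusted p = 1.23e-06). Duct values at this level are within 3 counts of 0 in 3 of 4 basal duct libraries, and the fitted size depends on the prior count. In luminal cells Oasl1 had 2.88 to 13.1 CPM in TEBs against 0.573 to 2.70 CPM in ducts (log2 fold change 2.50 ± 0.26). Oasl2 had from 34.6 to 148 CPM (median 59.5) in the 8 luminal TEB libraries and from 11 to 31.5 CPM (median 18.3) in the 8 duct libraries, without overlap (log2 fold change 1.81 ± 0.11 (SE), adjusted p = 7.36e-09). Eif2ak2 (PKR), the kinase that stops translation on double-stranded RNA, had changes of 0.37 ± 0.06 in luminal and -0.02 ± 0.08 in basal cells on the log2 scale (adjusted p = 0.000118 and 0.868). Its basal models went opposite ways. It had 50.7 and 53.55 CPM in TEBs against 37.55 and 44.7 CPM in ducts of Elf5 basal cells. In PR-cre basal cells it had 27.9 and 27.5 CPM in TEBs against 38.65 and 33.9 CPM in ducts.

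Among the 8 IFIT and other antiviral effectors, 6 were called higher in the luminal mean and 0 lower, against 20% and 18.6% of all genes. In the basal mean 3 were higher and 1 lower, against 20.9% and 22.8%. Ifit3 and Ifit3b, close paralogs whose proteins bind IFIT1, had the largest luminal gains of the class. Ifit3 had 9.18 and 13.8 CPM in TEB libraries, against 0.511 and 1.30 CPM in duct libraries of the GFP-positive gate and 4.95 and 5.69 CPM in TEBs against 0.280 and 0.308 CPM in ducts of the GFP-negative gate. It had 7.69 and 9.18 CPM in TEBs against 2.38 and 0.647 CPM in ducts of the YFP-negative gate and 1.98 and 4.33 CPM in TEBs against 0.448 and 1.38 CPM in ducts of the YFP-positive gate. The TEB values were higher in every gate (log2 fold change 3.03 ± 0.39 (SE), adjusted p = 1.30e-05). Ifit3b had from 1.18 to 9.54 CPM (median 5.01) in the 8 luminal TEB libraries and from 0.0900 to 0.810 CPM (median 0.271) in the 8 duct libraries, without overlap (log2 fold change 3.59 ± 0.50 (SE), adjusted p = 2.82e-05).
Ifit1, which binds RNA that lacks cap methylation, had 59.7 and 55.1 CPM in TEB libraries, against 2.41 and 7.38 CPM in duct libraries of the GFP-negative gate, 31.9 and 38.7 CPM in TEBs against 3.85 and 7.16 CPM in ducts of the GFP-positive gate and 11.3 and 15.9 CPM in TEBs against 9.32 and 4.53 CPM in ducts of the YFP-negative gate. All 8 luminal TEB values lay above all 8 luminal duct values (log2 fold change 2.51 ± 0.27 (SE), adjusted p = 3.88e-06). In basal cells it had 5.96 and 7.55 CPM in TEBs against 0.663 and 1.85 CPM in ducts in the Elf5 model and 3.0 and 3.11 CPM in TEBs against 1.67 and 3.15 CPM in ducts in the PR-cre model, apart in the first and overlapping in the second.
Rsad2 (viperin), which makes a chain-terminating nucleotide, had 84.3 and 84.2 CPM in TEB libraries, against 6.97 and 12.5 CPM in duct libraries of the GFP-negative gate and 20 and 28.6 CPM in TEBs against 2.27 and 3.55 CPM in ducts of the GFP-positive gate. Elf5 basal cells had 3.14 and 4.95 CPM in TEBs against 0.344 and 0.243 CPM in ducts and PR-cre basal cells 1.73 and 1.75 CPM in TEBs against 0.340 and 0.901 CPM in ducts, higher in TEBs in both models (log2 fold change 2.62 ± 0.38 (SE), adjusted p = 4.45e-05). Its luminal change was 2.57 ± 0.22 on the log2 scale (adjusted p = 4.57e-07). Cmpk2, the mitochondrial kinase beside Rsad2 on chromosome 12, differed between gates. It had 46.5 and 40.3 CPM in TEBs against 3.11 and 7.12 CPM in ducts of the GFP-negative gate and 10.3 and 14.1 CPM in TEBs against 5.83 and 3.33 CPM in ducts of the YFP-positive gate, a rise in both. It had 34.8 and 37.3 CPM in TEBs against 33.0 and 39.8 CPM in ducts of the GFP-positive gate, overlapping, and 20.4 and 22.6 CPM in TEBs against 48.1 and 38.3 CPM in ducts of the YFP-negative gate, where both TEB values were below both duct values and the difference was not called.
Bst2 (tetherin), which holds budding virus at the cell surface, was the highest member per transcript length in luminal TEBs. It had 80.3 and 100.2 CPM in TEBs against 23.7 and 17.3 CPM in ducts in GFP-positive cells and 19.4 and 25.4 CPM in TEBs against 4.15 and 3.37 CPM in ducts in Elf5 basal cells, wide apart in both, and 69.7 and 62.8 CPM in TEBs against 50 and 55.4 CPM in ducts in YFP-positive cells, not called. It rose in both compartments (log2 fold changes 1.2 ± 0.14 luminal and 1.75 ± 0.22 basal, adjusted p = 8.53e-06 and 8.06e-06).
Ifit2 and Isg20 went another way. Ifit2 had 10.6 and 14.4 CPM in TEBs against 33.4 and 31.9 CPM in ducts in YFP-negative cells, a fall, and 5.10 and 3.61 CPM in TEBs against 0.168 and 1.35 CPM in ducts in GFP-negative cells, a rise (log2 fold changes -1.38 ± 0.45 and 2.52 ± 0.52, adjusted p = 0.0421 and 0.00406). In YFP-positive cells it had 1.19 and 1.36 CPM in TEBs against 3.39 and 3.18 CPM in ducts, TEB below duct and not called. Isg20, an exonuclease of single-stranded RNA, had from 1.26 to 2.60 CPM (median 1.95) in the 4 basal TEB libraries and from 2.04 to 5.65 CPM (median 3.50) in the 4 duct libraries, and was called lower in the basal mean (log2 fold change -0.97 ± 0.30, adjusted p = 0.0145). Its luminal change of -0.47 ± 0.19 was not called (adjusted p = 0.0673), but was called without the keratinocyte libraries (adjusted p = 0.0264).

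Isg15, the ubiquitin-like protein conjugated to targets in the interferon response, followed the common profile closely. It had 73.7 and 69.9 CPM in TEB libraries, against 9.24 and 9.82 CPM in duct libraries of the GFP-negative gate and 40.6 and 58.0 CPM in TEBs against 7.49 and 6.84 CPM in ducts of the GFP-positive gate. YFP-positive cells had 20.3 and 22.6 CPM in TEBs against 3.98 and 7.83 CPM in ducts and YFP-negative cells 13.2 and 12.7 CPM in TEBs against 8.37 and 6.11 CPM in ducts. Every luminal TEB library lay above every luminal duct library (log2 fold change 2.10 ± 0.13 (SE), adjusted p = 7.36e-09). In basal cells it had 12.9 and 14.6 CPM in TEBs against 3.56 and 2.70 CPM in ducts in the Elf5 model, widely apart, and 5.89 and 4.96 CPM in TEBs against 5.06 and 5.65 CPM in ducts in the PR-cre model, overlapping (log2 fold changes 2.13 ± 0.26 and 0.02 ± 0.26).
Usp18 removes ISG15 from proteins and limits signalling at IFNAR2. It had 21.3 and 23.7 CPM in TEB libraries, against 1.29 and 3.26 CPM in duct libraries of the GFP-positive gate, 76.2 and 71.3 CPM in TEBs against 16.1 and 15.4 CPM in ducts of the GFP-negative gate, 9.13 and 8.20 CPM in TEBs against 1.32 and 0.938 CPM in ducts of the YFP-negative gate and 35.2 and 35.7 CPM in TEBs against 12.7 and 16.9 CPM in ducts of the YFP-positive gate. No gate overlapped (log2 fold change 2.44 ± 0.15 (SE), adjusted p = 7.36e-09). Elf5 basal cells had 7.46 and 9.15 CPM in TEBs against 1.40 and 0.942 CPM in ducts and PR-cre basal cells 2.70 and 2.84 CPM in TEBs against 2.10 and 1.92 CPM in ducts, with a change of 1.64 ± 0.22 over both models (adjusted p = 1.34e-05).

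The ADP-ribosylation genes of the same class behaved differently. Parp14, a mono-ADP-ribosyltransferase, had 16.8 and 23.8 CPM in TEB libraries, against 42.1 and 47.6 CPM in duct libraries of Elf5 basal cells and 9.46 and 12.2 CPM in TEBs against 46.1 and 43.3 CPM in ducts of PR-cre basal cells. The basal groups were far apart (log2 fold change -1.59 ± 0.13 (SE), adjusted p = 6.74e-08). In luminal cells it had 178 and 189.9 CPM in TEBs against 74.2 and 95.0 CPM in ducts in the GFP-negative gate and 64.4 and 78.1 CPM in TEBs against 45.2 and 46.0 CPM in ducts in the YFP-positive gate, a rise in both. It had 99.6 and 109.7 CPM in TEBs against 85.3 and 115 CPM in ducts in the GFP-positive gate, overlapping, and 51.7 and 60.4 CPM in TEBs against 78.5 and 78.6 CPM in ducts in the YFP-negative gate, where both TEB values were below both duct values and the difference was not called (luminal log2 fold change 0.34 ± 0.09 (SE), adjusted p = 0.006). Parp9 and its partner Dtx3l overlap by their ends on chromosome 16, and the kit does not mark strand, so reads of the overlap cannot be told apart. Parp9 had 75.4 to 157 CPM in TEBs against 68.2 to 107 CPM in ducts of luminal cells and 12.1 to 27.4 CPM in TEBs against 23.8 to 27.4 CPM in ducts of basal cells, with changes of 0.30 ± 0.06 luminal and -0.44 ± 0.09 basal (adjusted p = 0.000769 and 0.000592). Dtx3l had changes of 0.30 ± 0.06 luminal and -0.20 ± 0.09 basal (adjusted p = 0.00116 and 0.0889). In Elf5 basal cells Dtx3l had 19.8 and 24.9 CPM in TEBs against 18.1 and 16.8 CPM in ducts. In PR-cre basal cells it had 13.9 and 11.9 CPM in TEBs against 23.4 and 20.3 CPM in ducts, the opposite direction. The ubiquitin ligase Herc6, which in mice attaches ISG15, had 10.3 to 56.8 CPM in TEBs against 13.6 to 22.2 CPM in ducts of luminal cells and 2.82 to 6.04 CPM in TEBs against 4.39 to 6.78 CPM in ducts of basal cells (log2 fold changes 0.65 ± 0.13 luminal and -0.54 ± 0.19 basal, adjusted p = 0.000772 and 0.0311). Trim25, which activates RIG-I, had a luminal change of 0.22 ± 0.06 (adjusted p = 0.0109). This call was lost without the keratinocyte libraries, where the change was 0.125 (adjusted p = 0.0743), and Trim25 was called in none of the 4 luminal gates alone. The luminal change of Trim30a, 0.76 ± 0.37, was not called (adjusted p = 0.128), but it joins gates of opposite direction, and 1 luminal gate was called higher. Trim30a had 29.5 and 34.0 CPM in TEBs against 4.84 and 6.84 CPM in ducts of the GFP-negative gate. In the YFP-negative gate it had 5.02 and 8.60 CPM in TEBs against 9.94 and 9.47 CPM in ducts, both TEB values below both duct values.

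Among the GTPases, the Mx proteins block viral nucleocapsids and the guanylate-binding proteins attack membranes of intracellular microbes. Mx1 had 10.1 and 14.4 CPM in TEB libraries, against 0.356 and 2.03 CPM in duct libraries of the GFP-positive gate and 5.69 and 7.63 CPM in TEBs against 0.196 and 0.252 CPM in ducts of the GFP-negative gate, higher in TEBs in both. In YFP-positive cells it had 2.86 and 3.67 CPM in TEBs against 1.74 and 0.210 CPM in ducts, which did not overlap but were not called, and the luminal change was 2.90 ± 0.51 (adjusted p = 0.000293). Mx2 had changes of 1.81 ± 0.14 in luminal cells and -0.10 ± 0.20 in basal cells (adjusted p = 8.79e-08 and 0.721), and reads may have been divided between the 2 paralogs. The basal mean of Mx2 joins opposite directions. It had 5.04 and 5.74 CPM in TEBs against 2.23 and 4.31 CPM in ducts of Elf5 basal cells. In PR-cre basal cells it had 1.95 and 2.96 CPM in TEBs against 4.54 and 4.81 CPM in ducts.
Gbp2 was called higher in each luminal gate and lower in each basal gate. It had 64.1 and 69.2 CPM in TEB libraries, against 29.6 and 31.5 CPM in duct libraries of the GFP-positive gate, 112 and 121 CPM in TEBs against 62.5 and 59.2 CPM in ducts of the GFP-negative gate, 38.5 and 42.4 CPM in TEBs against 25.7 and 24.9 CPM in ducts of the YFP-positive gate and 31.1 and 36.5 CPM in TEBs against 27.4 and 20.3 CPM in ducts of the YFP-negative gate. TEBs were higher in each of these gates (log2 fold change 0.81 ± 0.07 (SE), adjusted p = 2.56e-07). In basal cells it had 9.16 and 9.53 CPM in TEBs against 32.0 and 33.0 CPM in ducts in the Elf5 model and 5.83 and 7.51 CPM in TEBs against 26.4 and 27.6 CPM in ducts in the PR-cre model, a log2 fold change of -1.91 ± 0.10 (adjusted p = 1.01e-09). Its paralog Gbp3 rose instead in Elf5 basal TEBs, with 14.8 and 21.9 CPM in TEBs against 6.24 and 9.45 CPM in ducts, and had 30.1 and 32.0 CPM in TEBs against 2.29 and 5.64 CPM in ducts of the GFP-negative gate and 36.2 and 37.7 CPM in TEBs against 8.76 and 9.85 CPM in ducts of the GFP-positive gate (log2 fold changes 1.86 ± 0.18 luminal and 0.81 ± 0.25 basal, adjusted p = 9.88e-07 and 0.0148).

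**Figure D3:**
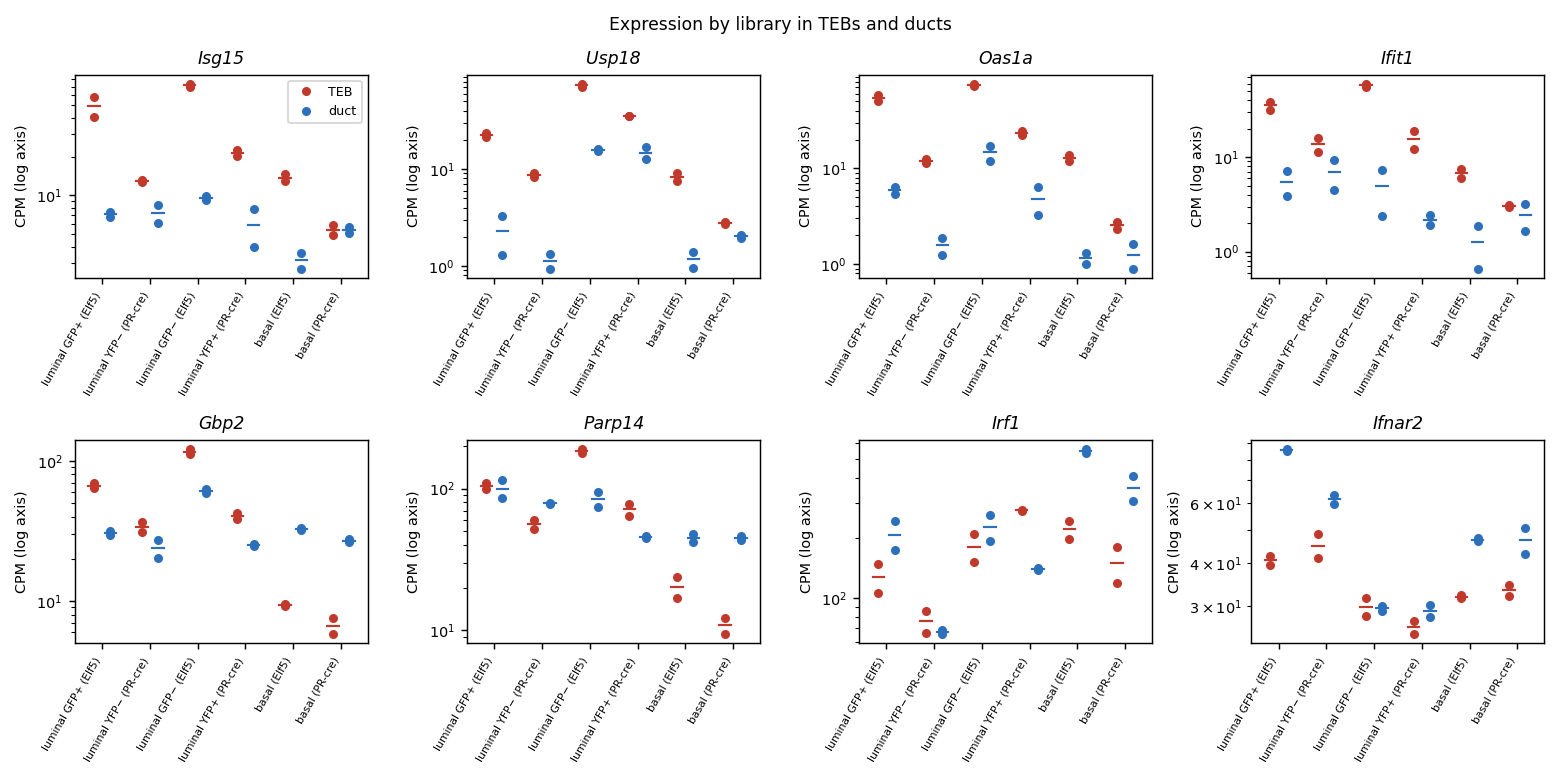
CPM of 8 members in each library (points, log axis) with the mean of the 2 libraries of a group (bar), TEBs in red left of ducts in blue, for 6 sorted populations. Isg15 reaches 73.7 CPM in GFP-negative TEBs; Gbp2 is higher in TEBs in the 4 luminal gates and lower in TEBs in both basal gates.

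The remaining members have varied or poorly known roles. Ifi44, an interferon-induced cytoplasmic protein, had the third largest basal change, after Oasl1 and Rsad2. It had 8.53 and 16.7 CPM in TEB libraries, against 0.442 and 1.12 CPM in duct libraries of Elf5 basal cells and 3.82 and 2.53 CPM in TEBs against 1.60 and 1.44 CPM in ducts of PR-cre basal cells (log2 fold change 2.55 ± 0.31 (SE), adjusted p = 6.14e-06). Luminal cells had 41.5 and 49.4 CPM in TEBs against 3.16 and 5.53 CPM in ducts in the GFP-negative gate and 51.9 and 67.2 CPM in TEBs against 16.6 and 19.1 CPM in ducts in the GFP-positive gate, well apart, and 18.1 and 18.9 CPM in TEBs against 15.2 and 10.3 CPM in ducts in the YFP-negative gate, not called (luminal log2 fold change 2.03 ± 0.20 (SE), adjusted p = 1.14e-06). Xaf1, an antagonist of the apoptosis inhibitor XIAP, had 43.5 and 51.4 CPM in TEB libraries, against 9.15 and 14.8 CPM in duct libraries of the GFP-negative gate and 20.1 and 27.3 CPM in TEBs against 4.36 and 7.54 CPM in ducts of the GFP-positive gate, and 7.03 and 7.86 CPM in TEBs against 8.10 and 5.40 CPM in ducts of the YFP-negative gate, overlapping. It rose in luminal TEBs (log2 fold change 1.41 ± 0.14, adjusted p = 1.12e-06). In basal cells it had 5.12 and 5.29 CPM in TEBs against 1.99 and 2.43 CPM in ducts in the Elf5 model and 1.77 and 2.14 CPM in TEBs against 3.37 and 4.45 CPM in ducts in the PR-cre model, opposite directions (log2 fold changes 1.24 ± 0.30 and -1.0 ± 0.30).
Rtp4, a chaperone of membrane receptors, changed by 1.31 ± 0.14 in luminal and 1.07 ± 0.22 in basal cells, and the secreted Lgals3bp by 0.84 ± 0.13 and 0.76 ± 0.20. The 4 changes were called, but the basal rise was in the Elf5 model. In PR-cre basal cells Rtp4 had 2.56 and 2.60 CPM in TEBs against 3.27 and 2.73 CPM in ducts. Lgals3bp had 1.60 and 3.50 CPM in TEBs against 3.15 and 2.88 CPM in ducts of the same cells, overlapping. Ifi27 and Ifi35 fell in the basal mean. Ifi27 had 28.1 and 31.9 CPM in TEBs against 58.3 and 62.9 CPM in ducts in PR-cre basal cells and 48.3 and 46.1 CPM in TEBs against 60.9 and 59.9 CPM in ducts in Elf5 basal cells, each TEB value below each duct value (basal log2 fold change -0.68 ± 0.10 (SE), adjusted p = 2.78e-05). Ifi35 had 11.4 and 12.5 CPM in TEBs against 21.0 and 25.7 CPM in ducts in PR-cre basal cells and 16.4 and 16.8 CPM in TEBs against 12.9 and 14.0 CPM in ducts in Elf5 basal cells, so that TEB values lay below the duct values in the first model and above them in the second (basal log2 fold change -0.33 ± 0.12, adjusted p = 0.0319).

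The test of the difference between cell layers, luminal minus basal TEB effect, called 23 of the 43 genes above 0 and 1 below 0, where 14.9% of all genes were called above and 11.4% below. The members' median difference was 0.80 on the log2 scale, beside 0.02 over all genes, and 37 of the 43 had the larger TEB effect in luminal cells. The 3 smallest p-values belonged to Gbp2 (2.72 ± 0.12, adjusted p = 3.21e-10), Parp14 (1.93 ± 0.16, adjusted p = 1.63e-07) and Irf9 (1.15 ± 0.11, adjusted p = 1.42e-06). These are genes that fell in basal TEBs. Oas3 had the largest difference, 4.02 ± 0.66 (adjusted p = 0.000238), whose basal side rests on 9 to 16 counts a group, so that its size is imprecise. Oasl1 was the gene called below 0 (-2.32 ± 0.60, adjusted p = 0.00773), and without the keratinocyte libraries Bst2 was called below 0 as well (log2 difference -0.63, adjusted p = 0.00986). For Oas1a, Oas1g, Rsad2, Ifi44, Rtp4, Dhx58, Ifit1, Bst2 and Lgals3bp, which were called higher in the luminal and in the basal mean, the difference was not called. The basal means of some of these join unlike effects. PR-cre minus Elf5, the basal TEB effect differed by -2.46 for Oas1a, -2.97 for Ifi44, -2.58 for Rtp4 and -2.03 for Lgals3bp, each called. For Rsad2 the luminal minus basal difference was -0.05 ± 0.38. The basal mean of Rtp4 joins opposite directions, since its TEB values lay below its duct values in PR-cre basal cells. Dhx58 was called in Elf5 but not in PR-cre basal cells. Of the 33 genes called higher in luminal TEBs, 14 were also called higher and 7 called lower in the basal mean. Among all genes tested, whatever their luminal call, 20.9% were called higher and 22.8% lower in the basal mean. The 7 are thus near the share over all genes.

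**Figure D4:**
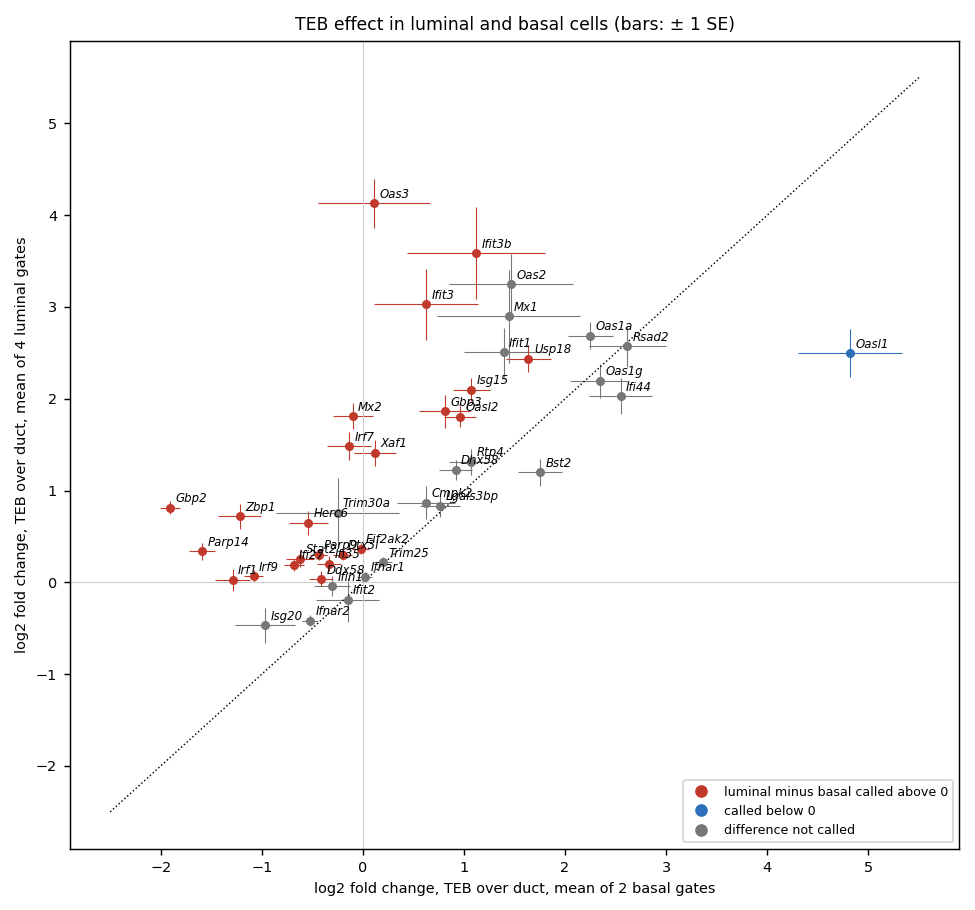
Log2 fold change, TEB over duct, of each of the 43 genes in luminal cells (vertical axis, mean of 4 gates) and in basal cells (horizontal axis, mean of 2 gates), with bars of 1 SE; the dotted line marks equal changes. Red genes had a luminal effect called above the basal one, and blue Oasl1 the reverse; Gbp2 lies at 0.81 luminal and -1.91 basal.

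Luminal gates were also compared by kind. The TEB effect in GFP-positive and YFP-negative cells minus that in GFP-negative and YFP-positive cells was called below 0 for 15 of the 43 genes and above 0 for 1, where 5.68% of all genes were below and 4.93% above. The gene above 0 was Usp18 (1.38 ± 0.29, adjusted p = 0.00549). Below 0, the largest differences were Cmpk2 (-2.76 ± 0.37), Zbp1 (-1.91 ± 0.28), Ifi44 (-1.78 ± 0.39), Ifit2 (-1.53 ± 0.47) and Ifih1 (-1.45 ± 0.22), and all 4 RNA sensors were among the 15. In TEBs themselves, 6 members were higher and 23 lower in GFP-positive and YFP-negative cells than in GFP-negative and YFP-positive cells, where 24.6% and 23% of all genes were called. In ducts the split was 15 higher and 14 lower, against 24.6% and 23.3%. The 6 higher in TEBs became 3 without YFP-positive TEB replicate 1 and 2 without GFP-negative TEB replicate 1. Duct levels that ran higher in the GFP-positive and YFP-negative kind were those of Ifit2 (3.74 ± 0.36), Cmpk2 (3.03 ± 0.28), Ifi44 (2.63 ± 0.29) and Gbp3 (1.99 ± 0.27), and the widest in the other direction was Usp18 (-3.25 ± 0.22), all on the log2 scale. Usp18 in ducts had 1.29 and 3.26 CPM in GFP-positive and 1.32 and 0.938 CPM in YFP-negative libraries, against 16.1 and 15.4 CPM in GFP-negative and 12.7 and 16.9 CPM in YFP-positive libraries, which do not overlap.

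The mouse models differed in the size of the TEB effect. Averaged over the 3 gates of each model, the TEB effect in the PR-cre model minus that in the Elf5 model was called below 0 for 20 of the 43 genes and above 0 for 1, where 1.27% of all genes were below and 1.69% above. The members' median difference was -1.08 on the log2 scale, beside 0.04 over all genes, and 41 of the 43 differences were below 0. With an assumed preparation of gates, which the labels do not state, taken as a random effect, 11 genes were called below 0. Isg15 had a difference of -1.70 ± 0.21 (adjusted p = 0.000547), Oasl2 of -1.65 ± 0.18 (adjusted p = 0.000305), Ifih1 of -1.38 ± 0.19 (adjusted p = 0.00116) and Xaf1 of -1.52 ± 0.23 (adjusted p = 0.00219). Irf1 was the gene above 0 (0.75 ± 0.19, adjusted p = 0.0487), a call lost under 4 of 7 alternative fits and when most single libraries were left out.

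A comparison of levels, chosen after the difference in TEB effect was seen, set the models side by side within each tissue. In TEBs 34 of the 43 genes were called lower in the PR-cre model than in the Elf5 model and 0 higher, where 8.84% of all genes were lower and 9.45% higher. In ducts 12 were lower and 2 higher, against 10.3% and 8.51%. The median log2 fold change, PR-cre over Elf5, was -1.10 in TEBs and -0.12 in ducts, beside 0.01 and -0.03 over all genes. Isg15 differed by -1.67 ± 0.15 in TEBs and 0.03 ± 0.15 in ducts, Oasl2 by -1.48 ± 0.13 and 0.18 ± 0.13, and Ifi44 by -2.09 ± 0.23 and -0.39 ± 0.25. Oas1a was lower in the PR-cre model in both tissues (-2.06 ± 0.16 in TEBs and -1.12 ± 0.18 in ducts), and Ifih1 was higher in PR-cre ducts (1.2 ± 0.14). The 12 genes lower in ducts became 6 without Elf5 basal duct replicate 1, 6 without PR-cre basal duct replicate 2, 6 without YFP-negative duct replicate 2 and 7 without GFP-positive duct replicate 1. The models differ in alleles, and any difference in strain, animals or processing day cannot be told apart from them.

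**Figure D5:**
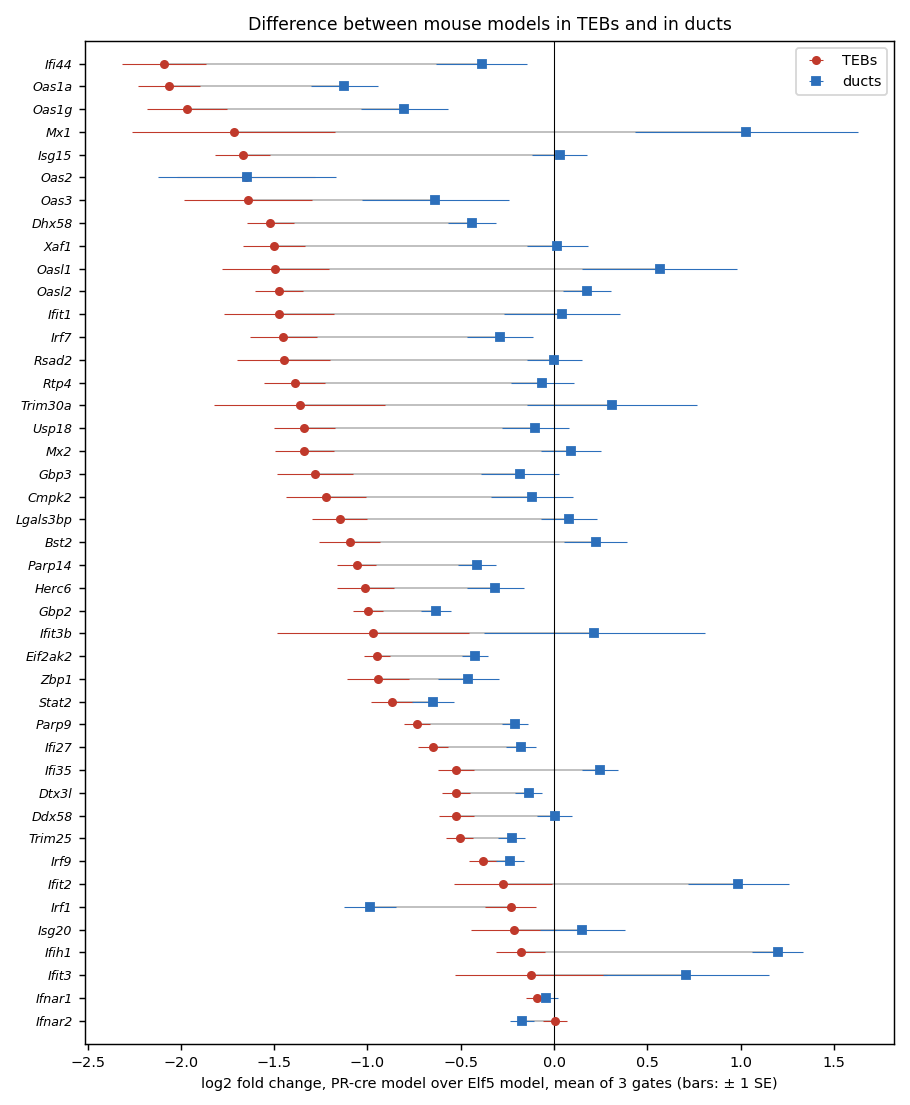
Log2 fold change, PR-cre model over Elf5 model, mean of 3 gates, of each of the 43 genes in TEBs (red circles) and in ducts (blue squares), with bars of 1 SE. In TEBs 34 genes were called lower and 0 higher in the PR-cre model; the duct values centre on a median of -0.12.

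Levels in basal cells were below those in luminal cells for most members. In ducts 30 of the 43 genes were called lower in basal than in luminal cells and 3 higher, where 29.8% of all genes were lower and 33.5% higher. In TEBs 39 were lower and 2 higher, against 28% and 30.8%. The members' median log2 fold change, basal over luminal, was -2.28 in TEBs and -1.37 in ducts. Ifih1 had the largest duct difference apart from Oasl1, -3.90 ± 0.17 on the log2 scale, with from 3.05 to 6.73 CPM (median 4.06) in the 4 basal TEB libraries and from 1.38 to 15.8 CPM (median 8.89) in the 4 duct libraries of basal cells. Irf1, Ifit2 and Ifnar1 were the 3 genes higher in basal ducts (1.62 ± 0.14, 1.31 ± 0.27 and 0.67 ± 0.06), and Ifit2 and Ifnar1 were higher in basal TEBs as well. Per transcript length, as TPM (transcripts per 1000000 transcripts), the highest members in luminal TEBs were Bst2 at 244, Ifi27 at 153, Isg15 at 126 and Irf1 at 120.0 TPM, each a mean over 8 libraries. In basal ducts Irf1 led with 308 TPM, before Ifi27 with 131 TPM. Oas3 had the largest basal to luminal difference in TEBs, with 0.0833 TPM in basal TEBs, against 11.3 TPM in luminal TEBs; in ducts it had 0.0705 TPM in basal cells, against 0.506 TPM in luminal cells.

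The wider interferon pathway, 116 further genes of which 98 were tested, was also counted. In the luminal mean 45 of the 98 were called higher and 12 lower, where 20% and 18.6% of all genes were called. In the basal mean 16 were higher and 43 lower, where 20.9% and 22.8% of all genes were called. The 12 and the 16 are below the share over all genes. Among receptors and kinases, Ifngr2 was higher in luminal TEBs (0.43 ± 0.08 on the log2 scale, adjusted p = 0.000538), while Ifngr1 and the lambda receptor Ifnlr1 fell in both layers (luminal -0.40 ± 0.07 and -0.97 ± 0.11, basal -0.83 ± 0.10 and -0.82 ± 0.16). The feedback inhibitor Socs3 fell in both layers, to 208 ± 69.9 CPM in basal TEBs, against 1837 ± 264 CPM in basal ducts (SD, n = 4 each; log2 fold change -3.19 ± 0.15), with a luminal log2 fold change of -1.30 ± 0.10.

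Of 17 tested genes of nucleic acid sensing, 7 rose and 3 fell in luminal TEBs, where 20% and 18.6% of all genes were called, and 5 rose and 4 fell in basal TEBs, where 20.9% and 22.8% were called. The genes that fell were thus at about the share over all genes in both layers. Cgas, the sensor of cytosolic DNA, rose in both layers (1.55 ± 0.17 luminal and 1.06 ± 0.25 basal on the log2 scale, adjusted p = 3.13e-06 and 0.00208). The subunit gene Rnaseh2b also rose in both (0.74 ± 0.08 and 0.98 ± 0.12). The adaptor of the RNA sensors, Mavs, fell in both (-0.38 ± 0.09 and -0.87 ± 0.13), and Tlr3 was called in basal but not in luminal TEBs (1.17 ± 0.13, with a luminal minus basal difference of -1.08 ± 0.16, adjusted p = 8.59e-05). The DNA exonuclease Trex1 rose in luminal and fell in basal TEBs (0.45 ± 0.13 and -1.64 ± 0.19).
Of 39 further interferon-stimulated genes, 22 rose and 1 fell in luminal TEBs, where 20% and 18.6% of all genes did. In basal TEBs 9 rose and 17 fell, where 20.9% and 22.8% of all genes did, so that the 9 are near that share. Opposite directions in the layers were widest for Lgals9 (1.57 ± 0.10 luminal and -2.11 ± 0.14 basal), Sp100 (2.07 ± 0.25 and -1.49 ± 0.36), Helz2 (0.84 ± 0.11 and -2.0 ± 0.16) and Ifitm3 (1.0 ± 0.08 and -1.13 ± 0.11). Ddx60 and Apol9a rose in both layers (1.53 ± 0.19 and 2.53 ± 0.18 luminal, 1.61 ± 0.29 and 2.37 ± 0.37 basal).
Of 19 GTPase and class I presentation genes, 12 rose and 1 fell in luminal TEBs, and 2 rose and 8 fell in basal TEBs, beside the same 20% and 18.6% and 20.9% and 22.8% of all genes. H2-K1, a classical class I heavy chain, had a luminal change of 0.32 ± 0.07 and a basal change of -1.37 ± 0.10, and B2m, its light chain, 0.57 ± 0.08 and -0.55 ± 0.12.

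The members varied together over libraries. After each gene's log2 CPM was centred on its mean within each of the 6 populations, the mean pairwise correlation among the 43 genes over 24 libraries was 0.402, beside 0.003 over all genes tested. TEB and duct libraries share this axis, so the value is a description. Each gene's correlation with the mean of the other 42 ran from 0.962 for Oasl2, 0.956 for Isg15 and 0.948 for Ifit1 down to -0.019 for Irf9, -0.215 for Irf1, -0.307 for Isg20 and -0.575 for Ifnar2. Outside all lists, the 10 genes whose profile was most like the members' mean were Sdc1 (r = 0.929), Rnf4 (0.927), Phlda3 (0.926), Tent4a (0.913), Mtrex (0.909), Myl12a (0.901), Zyx (0.900), Ddx24 (0.897), Mapk11 (0.897) and Tpm4 (0.894), over 24 libraries. Sdc1, a cell-surface heparan sulphate proteoglycan, was higher in TEBs in luminal cells by 1.58 and in basal cells by 0.65 on the log2 scale (adjusted p = 6.29e-07 and 0.0122). It was picked by its profile over the same TEB and duct libraries, so these p-values are not a separate test.

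Several members are neighbours in the genome. Chromosome 5 holds Oas1a, Oas1g, Oas2, Oas3, Oasl1 and Oasl2, and chromosome 19 the 4 Ifit genes. Chromosome 16 holds 8 members, among them Ifnar1 and Ifnar2, which lie in the same region but differ in their TEB change, with the values given for each. Paralogs with alike sequence (Oas1a and Oas1g, Ifit3 and Ifit3b, Mx1 and Mx2, Gbp2 and Gbp3) are uncertain as single genes, since no source used here says how multi-matching reads were counted.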

How the data were processed

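RNA was measured in 24 libraries of sorted mouse mammary epithelial cells, 2 for each of 12 groups. Per the labels' protocols, total RNA was DNase treated and made into libraries with a TruSeq RNA kit that does not mark strand. The deposited counts are whole-number reads per Entrez gene, made with featureCounts on mm10, per the submitters' processing notes; versions and the handling of multi-matching reads: not given in the sources used here. The matrix and the single-library files differed in 0 values. Symbols were found for 25275 of 27179 identifiers.

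The 43 genes and all further lists were chosen with earlier results of these data known. All 12 groups entered 1 fit in R 4.3.3 with edgeR 4.0.16: low counts were filtered, libraries were scaled by TMM, and each contrast was tested by the quasi-likelihood test with Benjamini-Hochberg adjustment over the 18109 genes tested. A gene was called at an adjusted p under 0.05. Adjusted p-values in the text come from that fit, and SEs are on the log2 scale. The fit was tested on simulated data with known changes. Depth of 31.3 to 52.5 M counts puts 3 counts at 0.057 to 0.096 CPM; counting error only is covered. Replicates of a group differed by 18.0 to 175.3 in chi-square per degree of freedom, so none was a repeated library. Gates of the same model, tissue and replicate number may share a preparation. Alternatives were DESeq2 1.42.0 size factors and its Wald test, no filter, limma 3.58.1 voom with quality weights or with preparation as a random effect, a replicate block, leaving out the keratinocyte libraries and leaving out each library. The contrasts of mouse models within a tissue and in the basal TEB effect, and the gamma-activated site letters were added after the data were seen. Promoters came from RefSeq tables of GRCm38.p6, the same assembly as mm10. Genes with full values were taken by rule: in each role class the 2 largest called luminal changes, members called against the majority, both receptors, the 3 largest basal changes and the 3 smallest p-values for luminal minus basal. Other members' values were added after they were seen, to cover each role.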

Additional observations from a re-analysis of the deposited data

Results flagged for a closer look

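The members below are listed because the TEB effect differed between 2 sets of libraries by a test of the difference itself (an interaction contrast in edgeR, adjusted p under 0.05). Values are differences of log2 fold changes. Groups of 2 libraries are too small for a test of single outlying libraries.

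The luminal minus basal TEB effect was called for 24 members. Above 0 were Oas3 (4.02), Gbp2 (2.72), Ifit3b (2.47), Ifit3 (2.40), Zbp1 (1.94), Parp14 (1.93), Mx2 (1.91) and Irf7 (1.62). These were followed by Irf1 (1.32), Xaf1 (1.30), Herc6 (1.19), Irf9 (1.15), Gbp3 (1.05), Isg15 (1.03), Stat2 (0.88) and Ifi27 (0.87). These were followed by Oasl2 (0.85), Usp18 (0.80), Parp9 (0.74), Ifi35 (0.53), Dtx3l (0.50), Ddx58 (0.45) and Eif2ak2 (0.39). Below 0 was Oasl1 (-2.32).

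The TEB effect in GFP-positive and YFP-negative minus GFP-negative and YFP-positive gates was called for 16 members. Above 0 was Usp18 (1.38). Below 0 were Cmpk2 (-2.76), Zbp1 (-1.91), Ifi44 (-1.78), Ifit2 (-1.53), Ifih1 (-1.45), Gbp3 (-1.21), Irf7 (-1.18) and Dhx58 (-1.13). These were followed by Parp14 (-1.09), Rtp4 (-1.01), Ddx58 (-0.73), Ifnar2 (-0.69), Parp9 (-0.52), Eif2ak2 (-0.52) and Ifi27 (-0.49).

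The TEB effect in the PR-cre minus the Elf5 model was called for 21 members. Above 0 was Irf1 (0.75). Below 0 were Oasl1 (-2.06), Ifi44 (-1.70), Isg15 (-1.70), Oasl2 (-1.65), Xaf1 (-1.52), Mx2 (-1.43), Ifih1 (-1.38) and Rtp4 (-1.33). These were followed by Bst2 (-1.32), Usp18 (-1.24), Lgals3bp (-1.23), Irf7 (-1.16), Dhx58 (-1.08), Oas1a (-0.94), Ifi35 (-0.77) and Parp14 (-0.64). These were followed by Ddx58 (-0.53), Parp9 (-0.53), Eif2ak2 (-0.53) and Ifi27 (-0.47).

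The basal TEB effect in the PR-cre minus the Elf5 model, tested after the data were seen, was called for 12 members. Below 0 were Ifih1 (-3.54), Ifi44 (-2.97), Rtp4 (-2.58), Oas1a (-2.46), Oasl2 (-2.44), Usp18 (-2.35), Xaf1 (-2.24) and Isg15 (-2.11). These were followed by Lgals3bp (-2.03), Ifi35 (-1.27), Dtx3l (-1.12) and Parp9 (-0.90).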

How the results depend on the processing

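Of 622 counts of members recomputed under alternatives, 548 stayed within 1.5 times the count reported, and of 2967 member fold changes 2830 kept direction and call, 103 lost the call, 33 gained it and 1 reversed (Ifit3b, luminal minus basal, 2.47 as reported, -0.57 without Elf5 basal duct replicate 1, and -0.57 to 2.91 over all single libraries left out). The cause was not tested. Counts are of members called higher or lower in TEBs unless a difference is named. Without the keratinocyte libraries, YFP-negative cells had 8 higher (13 as reported) and 2 lower (4), YFP-positive cells 1 lower (0), the luminal mean 2 lower (1), luminal minus basal 2 below 0 (1) and the gate difference 2 above 0 (1). By the DESeq2 Wald test YFP-positive cells had 1 lower and the luminal mean 2, and with DESeq2 size factors the luminal mean had 2. With voom quality weights YFP-positive cells had 1 lower, PR-cre basal cells 1 higher (5), the luminal mean 2 lower, the model difference 0 above 0 (1), PR-cre over Elf5 in ducts 1 higher (2) and 6 lower (12), and the basal model difference 6 below 0 (12). With the assumed preparation as a random effect, PR-cre basal cells had 1 higher and the model difference 0 above and 11 below 0 (20). In the same fit the basal model difference had 5 below 0, and PR-cre over Elf5 in ducts 6 lower. Without a filter the model difference had 0 above 0. The stricter promoter letters were in 10 genes (16).

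With 1 library left out, counts ranged from 1 to 2 lower in GFP-positive (3), 4 to 11 higher and 0 to 2 lower in YFP-negative, 11 to 15 higher in YFP-positive (22), and 1 to 2 higher and 9 to 16 lower in PR-cre basal cells (18). They ranged from 1 to 2 lower in the luminal mean, 1 to 2 below 0 for luminal minus basal, 1 to 3 above 0 for the gate difference, 0 to 1 above 0 for the model difference, 5 to 12 below 0 for the basal model difference, 2 to 5 higher for the gate kinds in TEBs (6), and 2 to 4 higher and 6 to 11 lower for the models in ducts. A group left with 1 library is assumed to vary like the others.

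With the replicate number as a block, the model difference had 0 above 0 and PR-cre over Elf5 in ducts 7 lower, and the other counts stayed within 1.5 times. Deviations of same-numbered libraries correlated by 0.04 to 0.10 between duct and TEB and by 0.01 to 0.15 between gates, so the numbers are not taken as pairs. Depth limits the interferon genes and, in basal cells, Oasl1 in ducts, Oas3 (9 to 16 counts in the 2 libraries of a group) and Ifit3b (0 counts in Elf5 basal duct replicate 2).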
